A study of Homo sapiens with 12 samples.

Results

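The ADAM, ADAMTS and MMP genes encode zinc metalloproteinases and their close relatives, and the TIMP genes encode their inhibitors. The genes were all protein-coding genes in the count tables whose GENCODE symbol is ADAM, ADAMTS, MMP or TIMP followed directly by a number. The rule gave 66 of 58051 genes, made up of 4 TIMP, 23 MMP, 20 ADAM and 19 ADAMTS genes. They were described by RNA-seq of 3 lines of human renal cell carcinoma (12 libraries), all labelled as clear cell and all transfected at 10 nM, with RNA taken 48 h later. In 786-O cells, 1 library with a miR-29 mimic was set against 1 with a control mimic, and in A-498 cells 2 libraries were set against 2. The authors left out 2 further A-498 libraries of the mimic experiment as possibly mislabelled. In ACHN cells, 3 libraries with a miR-29 inhibitor were set against 3 with a control inhibitor. The mimic adds miR-29 activity and the inhibitor blocks the miR-29 that the cells hold. The authors call the A-498 and ACHN libraries biological replicates. The labels do not say that replicates of a group came from separate cultures, so p-values measure only the spread between these libraries.

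MMPs cleave collagens and other parts of the extracellular matrix, either as secreted enzymes or, for the membrane-type members, at the cell surface. ADAMs are membrane proteins that release the outer parts of growth factors, cytokine receptors and adhesion proteins from cells, although some members have lost the catalytic site. ADAMTS enzymes are secreted, bind matrix through thrombospondin repeats, and cut proteoglycans or trim procollagens. TIMPs bind the active site of MMPs and of some ADAM and ADAMTS enzymes. miR-29 is a family of microRNAs best known for lowering collagen and other matrix messages through short matches in their 3′ UTRs, which makes the enzymes acting on that matrix a natural group to examine.

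The mature miR-29 strands are shown because their shared seed defines every site described here. The sequences are those of RefSeq on GRCh38.p14, with the seed (bases 2 to 8) in capitals.
hsa-miR-29a-3p: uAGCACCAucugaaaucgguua
hsa-miR-29b-3p: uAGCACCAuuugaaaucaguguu
hsa-miR-29c-3p: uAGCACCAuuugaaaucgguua

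A site was an exact match on the message strand to the seed, TGGTGCT (a 7mer-m8), or to the seed followed by an A, TGGTGCTA (an 8mer, which contains the 7mer-m8), in the 3′ UTR of the MANE Select transcript. Of the 66 genes, 21 (31.8%) had a site, against 2675 of 19030 coding genes (14.1%). The ADAMTS family carried most of them, with a site in 12 of 19 genes (63.2%). Among 4811 coding genes with a 3′ UTR within 1.5 times the ADAMTS median length, 785 (16.3%) had a site. A site was found in 6 of 23 MMP genes, 3 of 20 ADAM genes and 0 of 4 TIMP genes. An 8mer was found in ADAMTS2, ADAMTS6, ADAMTS7, ADAMTS9, ADAMTS10, ADAMTS12 and MMP16. A match is a description of the sequence and does not show that the site is used.

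**Figure D1:**
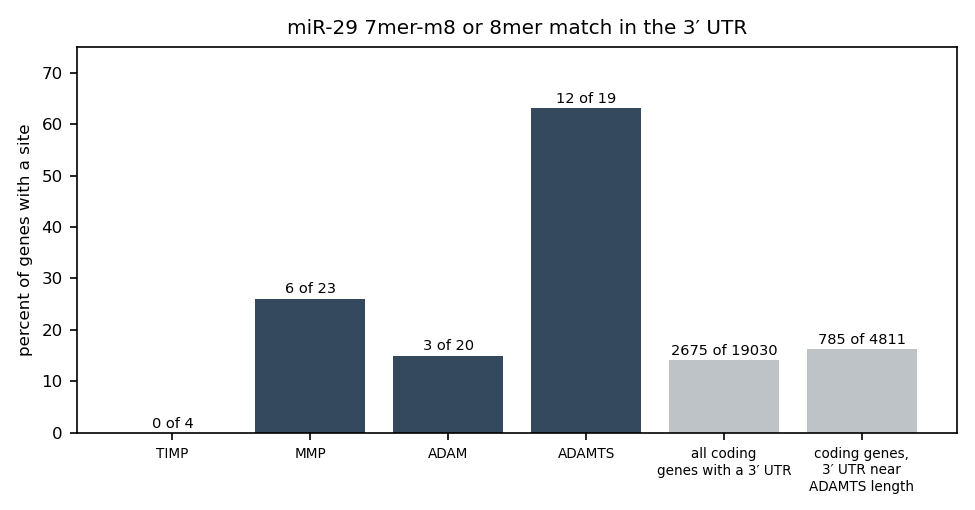
Percent of genes (vertical axis) whose MANE Select 3′ UTR holds a 7mer-m8 or 8mer match to the miR-29 seed, for the 4 families (dark bars) and for 2 sets of coding genes (grey bars), with the number of genes above each bar. The ADAMTS bar stands at 63.2%, and the bar of coding genes with a 3′ UTR of similar length stands at 16.3%.

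Sites of 5 genes that had one and that moved in opposite directions in A-498 and ACHN are shown with their flanks, as examples. The A-498 fall of ADAMTS7 was small, and its call was lost in several alternative runs given below. ADAM12 and ADAM19 are shown by their first site. Capitals mark the site.
ADAMTS15: tgtcactggactggggtTGGTGCTga
ADAM12: agtgctgtgctgtgctaTGGTGCTct
ADAM19: attctccctctaatgtgTGGTGCTtt
ADAMTS7: gccccctgcgccctaaTGGTGCTAac
MMP24: ctgtccactcctcaggtTGGTGCTct

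All of these windows lie in 3′ UTR exons on GRCh38. The ADAMTS15 window is chr11:130474679-130474704 on the plus strand, 875 nt after the stop codon at the site. The ADAM12 window is chr10:126017112-126017137 and the ADAM19 window is chr5:157480109-157480134, both on the minus strand. The ADAMTS7 window is chr15:78759329-78759354 on the minus strand, only 83 nt after the stop codon. The MMP24 window is chr20:35276609-35276634 on the plus strand, 2017 nt after the stop codon.

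Each library held 39919554 to 70027392 reads in genes, of which 82812 to 196160 fell in the 66 genes. Levels are given as CPM (a gene's reads scaled to a common total, where each library's reads in genes were first multiplied by a TMM scaling factor). The factors were computed within each line and ran from 0.974 to 1.03. Of 10 renal and renal carcinoma markers, 7 to 9 exceeded 1 CPM in every group, while mean LRP2 was below 0.1 CPM in all but the ACHN inhibitor group. CA9 was at 7.36 to 11.4 CPM in A-498 but at most 0.313 CPM in 786-O and 0.166 CPM in ACHN. CDH6 was at most 0.324 CPM in ACHN. Endothelial markers (3 genes) summed to at most 0.492 CPM and leukocyte markers (3 genes) to at most 0.400 CPM in any library. The fibroblast list (LUM, DCN, PDGFRB) went from 22.9 to 9.56 CPM in 786-O and from 1.63 to 1.78 down to 0.592 to 0.714 CPM in A-498. It went from 1.58 to 1.998 up to 2.87 to 3.62 CPM in ACHN. DCN was at or below 0.102 CPM in every 786-O and A-498 library, and LUM below 0.1 CPM in every A-498 library. Renal markers changed too, with 6 of 9 tested higher and 1 lower in A-498, against 25.5% and 27.0% of all genes tested. In ACHN 0 of 7 were higher and 5 lower, against 17.3% and 14.4% of all genes tested. The part of these marker lists in the results was not tested. In bulk RNA, fewer cells with a transcript and less of it per cell cannot be told apart.

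In control libraries, the inhibitors and the sheddases made up most of the summed level of the 66 genes per kb of transcript. Proteolytic ADAM genes took 33.6% (786-O), 48.6% (A-498) and 50.3% (ACHN) of that sum, and TIMP genes took 34.0%, 23.6% and 19.0%. ADAM9, a widely expressed membrane protease, was the highest gene in A-498 (269.6 CPM per kb) and ACHN (135 CPM per kb). TIMP1, a broad MMP inhibitor, was highest in 786-O (135 CPM per kb). MMP14, the membrane-type enzyme that activates pro-MMP2, stood at 38.5 (786-O), 62.5 (A-498) and 30.4 (ACHN) CPM per kb.

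The lines differed in the RNA levels of several of these genes, and these differences are given as levels without a test. The 786-O control was 1 library, and the ACHN controls held a control inhibitor in place of a control mimic. MMP7, the epithelial matrilysin, was at 97.9 and 99.0 CPM in the A-498 controls, 2.18 CPM in 786-O and 2.87 to 3.25 CPM in ACHN. MMP2, a gelatinase, was at 142 CPM in the 786-O control, below 0.36 CPM in A-498 and had no read in the 3 ACHN controls. MMP16, another membrane-type enzyme, was at 106 CPM in 786-O and below 0.79 CPM in the other controls. ADAMTS1, a proteoglycan-cleaving enzyme, was at 344 to 351 CPM in ACHN, 215 CPM in 786-O and 42.1 to 44.96 CPM in A-498. ADAMTS2, which removes the N-propeptide of procollagen, was at 72.4 to 74.3 CPM in A-498 and had no read in any ACHN library. TIMP3 stayed below 0.1 CPM in every library. In all, 23 of the 66 genes stayed below 1 CPM in every library, and 16 had too few reads to be evaluated in any line, with at most 11 reads in a library.

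**Figure D2:**
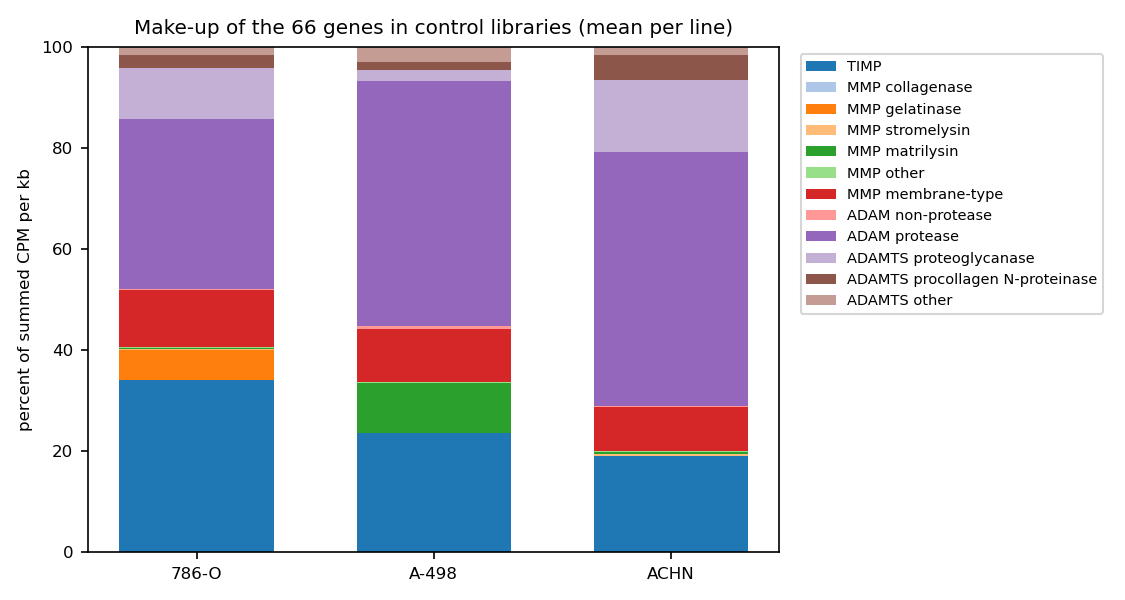
Make-up of the 66 genes in the control libraries of each line (horizontal axis), as percent of their summed CPM per kb of transcript (vertical axis), by enzyme class. Values are means over 1 (786-O), 2 (A-498) and 3 (ACHN) control libraries, and proteolytic ADAM genes take 33.6%, 48.6% and 50.3%.

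The first question was what added miR-29 did to these genes in A-498. Lower levels were the more frequent change: 24 of the 43 genes tested were lower with the mimic and 10 were higher, where 27.0% and 25.5% of all 19676 genes tested were lower and higher (52.5% either way). The median log2 fold change was -0.28 for these genes and 0.0045 for all genes. Among the genes past the count filter in both groups, the largest falls were those of ADAMTS15 (5.25-fold), ADAM12, MMP15, ADAMTS2 and ADAMTS12. Of the 43 genes, 34 passed the count filter in both groups, and of these 23 were lower and 6 higher. The shares of all genes above also count genes past the filter in 1 group alone, so they are not matched to these 34. The other 9 (MMP2, MMP3, MMP9, MMP10, MMP13, MMP25, ADAM21, ADAMTS4 and ADAMTS5) passed through 1 group alone, a choice that is not independent of the difference tested, and 5 of them were called. For 39 of the 43 genes the mimic and control ranges were separate, against 74.5% of all genes tested.

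In ACHN, the inhibitor went with rises. Of 37 genes tested, 18 were higher and 1 was lower, where 17.3% and 14.4% of all 17904 genes tested were higher and lower (31.7% either way). The median log2 fold change was 0.28 for these genes and 0.0038 for all genes. Ranges were separate for 19 genes, against 43.5% of all genes tested. By family, 10 of 13 tested ADAMTS genes were higher and 0 lower by edgeR (0 also at an unadjusted p under 0.05 and 0 by DESeq2), whereas 4 of 11 ADAM genes, 3 of 10 MMP genes and 1 of 3 TIMP genes were higher. ADAMTS13, ADAMTS14 and ADAMTS17 were the other ADAMTS genes, with log2 fold changes of 0.02, 0.58 and -0.08 that did not pass the test.

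In 786-O, with no replicates and hence no test, 44 genes had at least 10 reads over both libraries. Of these, 13 were at least 2-fold lower with the mimic, against 8.96% of 20370 genes, and 5 were at least 2-fold higher, against 6.73%. The log2 ratio was under 0 for 29 genes, against 51.0% of all genes, and the median was -0.35.

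**Figure D3:**
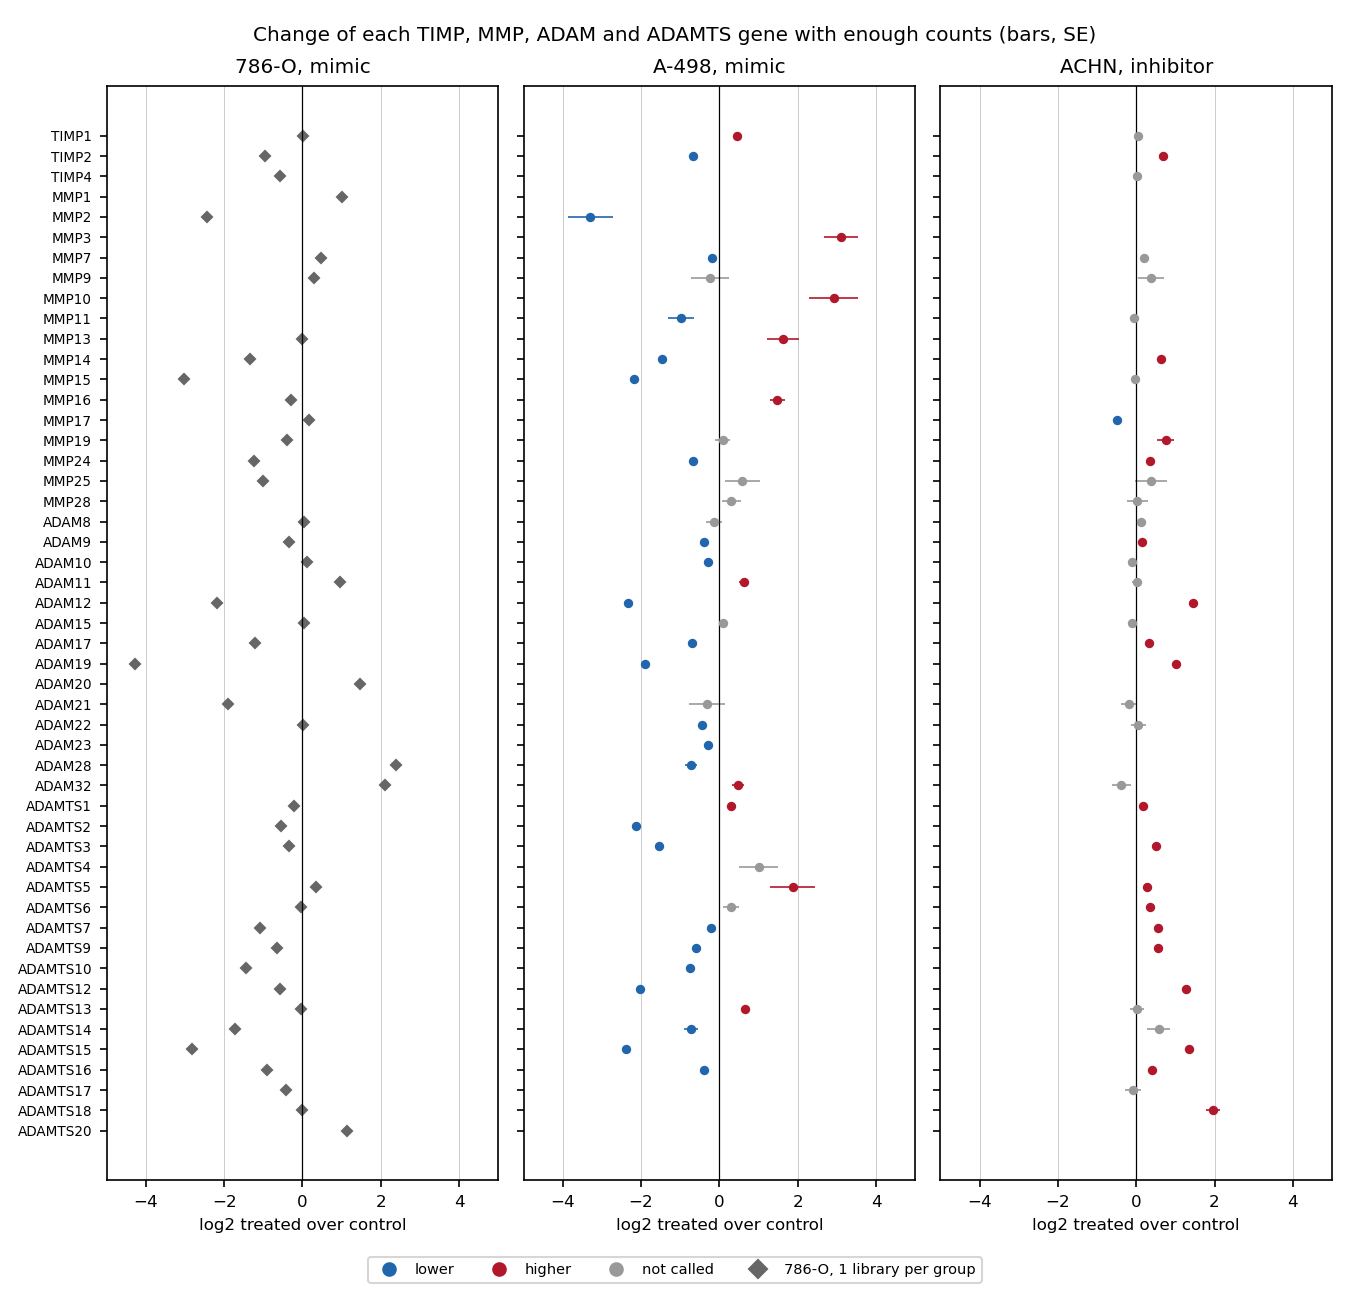
Log2 change with treatment (horizontal axis) of each gene with enough reads (vertical axis), 1 panel per line. Circles are edgeR log2 fold changes with bars of 1 SE, blue where lower and red where higher at an adjusted p under 0.05, and diamonds are 786-O ratios of 1 library per group; in ACHN 18 genes are red and 1, MMP17, is blue.

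The genes that moved both ways came next, since the mimic and the inhibitor should act oppositely on genes that follow miR-29. A test in A-498 as well as in ACHN was possible for 33 genes. Of these, 13 fell under the mimic and rose under the inhibitor, as did 10.5% of 16708 genes. The reverse pattern was found for 0 of 33 genes by edgeR, against 7.37% of all genes, and for 0 by DESeq2. At an unadjusted p under 0.05 it was found for 1 gene, ADAM15. Only ADAMTS1 and ADAMTS5 moved the same way in both lines (5.35% of all genes did). All 13 opposed genes also had a 786-O ratio under 0, as did 85.3% of the 1729 opposed genes measured there. They were ADAM9, ADAM12, ADAM17 and ADAM19, ADAMTS3, ADAMTS7, ADAMTS9, ADAMTS12, ADAMTS15 and ADAMTS16, MMP14 and MMP24, and TIMP2.

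**Figure D4:**
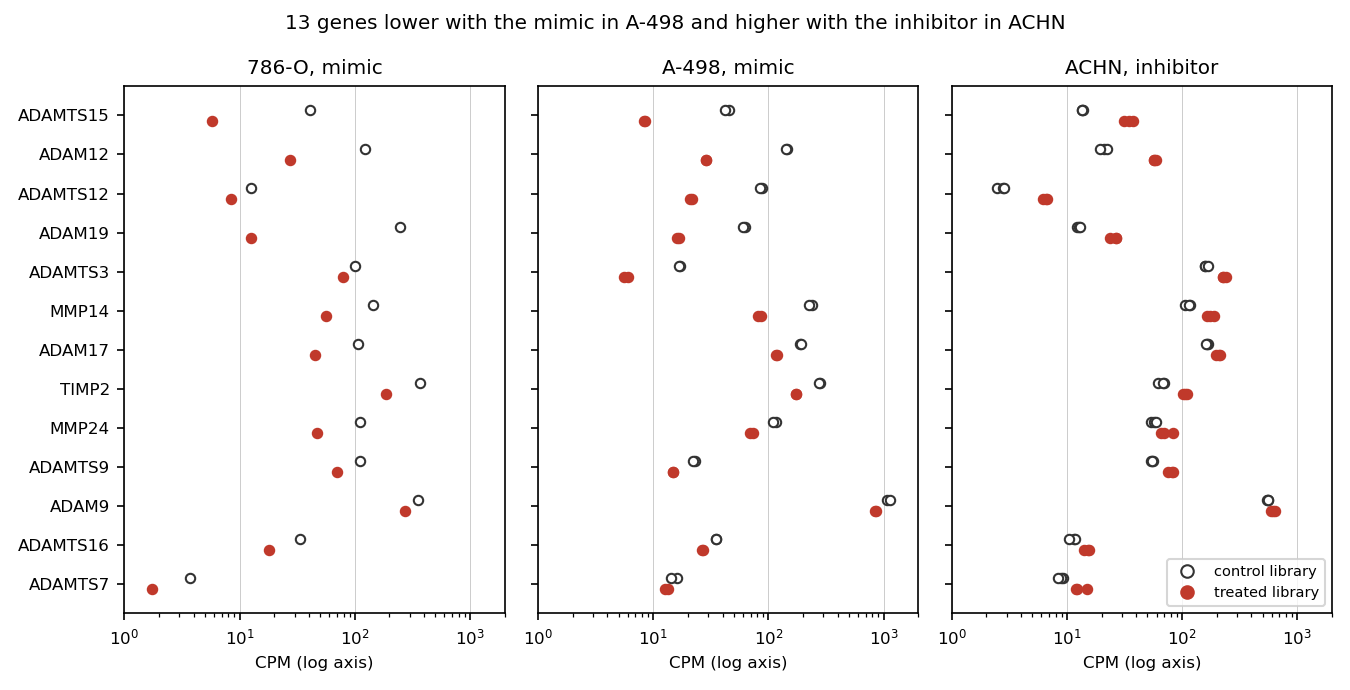
CPM on a log axis (horizontal) of the 13 opposed genes (vertical), 1 point per library, open for control and filled for treated. Treated libraries lie to the left of controls in 786-O and A-498 and to the right in ACHN, with no overlap for any of the 13 genes.

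Among the sheddases, ADAM12 and ADAM19 had the largest changes. ADAM12, a metalloproteinase of stroma and tumours that cleaves IGF-binding proteins, was at 146 and 142 CPM in the A-498 controls and 28.5 and 28.8 CPM with the mimic. In ACHN it was at 21.2, 22.4 and 19.5 CPM in the controls and 57.0, 59.5 and 57.0 CPM with the inhibitor. In 786-O it was at 124 CPM and 27.3 CPM. The groups were far apart in each line, with log2 fold changes of -2.33 ± 0.05 (SE, adjusted p = 8.05e-14) in A-498 and 1.46 ± 0.05 (adjusted p = 6.20e-13) in ACHN. ADAM19, which sheds neuregulin, was at 62.8 and 60.5 CPM in the A-498 controls and 16.8 and 16.1 CPM with the mimic. It was at 12.3, 12.7 and 13.01 CPM in the ACHN controls and 26.4, 26.4 and 23.6 CPM with the inhibitor. In 786-O it had the lowest ratio of the 44 genes, at 247 CPM with the control and 12.6 CPM with the mimic (19.5-fold lower). Its log2 fold changes were -1.91 ± 0.05 in A-498 (adjusted p = 3.51e-12) and 1.01 ± 0.06 in ACHN (adjusted p = 1.46e-09). Both genes hold 2 of the 7-base sites.

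ADAM17 and ADAM9 moved by less than ADAM12 and ADAM19, and in A-498 and ACHN at higher levels. ADAM17, the sheddase of TNF and of EGF-receptor ligands, was at 189 and 191 CPM in the A-498 controls and 118 and 115 CPM with the mimic (log2 fold change -0.71 ± 0.04, adjusted p = 1.60e-09). In ACHN it went from 166, 165 and 162 CPM to 208, 196 and 211 CPM (0.32 ± 0.04, adjusted p = 1.69e-05), and in 786-O from 106 to 45.4 CPM. ADAM9 went from 1071 and 1146 CPM to 849.8 and 835 CPM in A-498 (-0.40 ± 0.04, adjusted p = 4.37e-07). In ACHN the change was small, from 561, 545 and 558 CPM to 619.7, 596 and 642 CPM (0.16 ± 0.04, adjusted p = 0.00255). Neither has a match of 6 or more seed bases in its MANE 3′ UTR, though the longest annotated 3′ UTR of ADAM9 holds a 7mer-m8.

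ADAM10, the constitutive sheddase of Notch receptors and cadherins, did not follow this pattern. It was lower with the mimic in A-498 (393 and 422 CPM against 342 and 329 CPM, log2 fold change -0.28 ± 0.04, adjusted p = 4.90e-05). In ACHN it stood at 387, 387 and 393 CPM in the controls and 362, 345 and 377 CPM with the inhibitor, a log2 fold change of -0.11 ± 0.04 that missed the threshold (adjusted p = 0.0506) though the groups did not overlap. DESeq2 called it lower there (adjusted p = 0.0249), as did edgeR without TMM scaling (adjusted p = 0.0238) and without inhibitor replicate 3 (adjusted p = 0.0227). In 786-O it went from 325 to 351.5 CPM. ADAM15, whose exons overlap those of DCST1, had a log2 fold change of 0.09 in A-498 and -0.10 in ACHN and passed in neither (adjusted p = 0.0701 and 0.122).

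The remaining ADAM calls were in A-498. ADAM28, a protease first known from lymphocytes, was lower (2.60 and 2.43 CPM against 1.54 and 1.497 CPM, log2 fold change -0.72 ± 0.15, adjusted p = 9.11e-04). In 786-O it went from 2 reads to 19 reads, a ratio of 9.45 with an exact 95% counting interval of 2.28 to 83.7. Among the members without protease activity, ADAM22 (-0.44) and ADAM23 (-0.28), which are neural adhesion proteins, were lower. ADAM11, of the same group, was higher at 7.61 and 7.71 CPM against 5.71 and 4.30 CPM (0.62 ± 0.12, adjusted p = 4.74e-04). ADAM32, a testis gene, was higher at 2.46 and 2.49 CPM against 1.71 and 1.84 CPM (0.48 ± 0.15, adjusted p = 0.0126), a call that DESeq2 did not make (adjusted p = 0.149). ADAM32 also went from 36 to 163 reads in 786-O (4.32-fold). ADAM21, which has close copies that make its counts uncertain, went from 46 to 11 reads in 786-O (3.71-fold lower). It did not pass in the other lines.

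Of the ADAMTS enzymes that cut proteoglycans, ADAMTS15 changed most. It was at 45.4 and 42.3 CPM in the A-498 controls and 8.47 and 8.24 CPM with the mimic. In ACHN it was at 13.7, 13.4 and 13.6 CPM in the controls and 31.3, 37.2 and 34.9 CPM with the inhibitor, and in 786-O it went from 41.0 to 5.76 CPM. The libraries of each group lay close together, and the gene was 5.25-fold lower in A-498 (adjusted p = 2.37e-12), 7.06-fold lower in 786-O and 2.54-fold higher in ACHN (adjusted p = 2.67e-11). ADAMTS9, which cleaves versican and aggrecan, went from 23.1 and 22.1 CPM to 14.9 and 14.8 CPM in A-498 (log2 fold change -0.60 ± 0.06, adjusted p = 2.10e-06). In ACHN it went from 53.4, 55.4 and 54.8 CPM to 76.0, 82.1 and 83.3 CPM (0.56 ± 0.05, adjusted p = 4.20e-08), and in 786-O from 110.3 to 69.8 CPM.

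ADAMTS1 and ADAMTS5 rose in both lines. ADAMTS1 rose with the mimic from 44.96 and 42.1 CPM to 52.9 and 53.4 CPM in A-498 (log2 fold change 0.29 ± 0.05, adjusted p = 2.47e-04). It rose with the inhibitor from 344, 351 and 346 CPM to 390.3, 384 and 399.5 CPM in ACHN (0.17 ± 0.04, adjusted p = 0.00143). ADAMTS5, the main aggrecanase of cartilage, rested on 11 and 44 reads in the control and mimic groups of A-498 (adjusted p = 0.0142), where it passed the filter through the mimic group alone. That call was lost without mimic replicate 1 (adjusted p = 0.291), without control replicate 3 (adjusted p = 0.0896) and under DESeq2 (adjusted p = 0.0887). In ACHN it rose from 6.76, 6.05 and 5.54 CPM to 8.10, 7.58 and 6.72 CPM, where the groups overlapped (0.28 ± 0.10, adjusted p = 0.0327). In ACHN it did not pass without control replicate 2 or 3 (adjusted p = 0.104 and 0.155), without inhibitor replicate 1 or 2 (adjusted p = 0.163 and 0.0531) or under DESeq2 (adjusted p = 0.0596).

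The procollagen N-proteinases trim the fibrillar collagens before fibre assembly, and all 3 were lower with the mimic in A-498. ADAMTS2 went from 74.3 and 72.4 CPM to 16.0 and 17.3 CPM (log2 fold change -2.14 ± 0.06, adjusted p = 1.25e-12). ADAMTS3 went from 16.9 and 16.8 CPM to 5.99 and 5.57 CPM (-1.54 ± 0.08, adjusted p = 1.08e-09). ADAMTS14 went from 1.74 and 1.67 CPM to 1.015 and 1.04 CPM (-0.73 ± 0.18, adjusted p = 0.00302), a call that DESeq2 did not make (adjusted p = 0.0581). ADAMTS3 was the member of this class well expressed in ACHN, where it rose from 159, 158 and 168 CPM to 228, 225 and 239 CPM (0.51 ± 0.04, adjusted p = 5.52e-08). In 786-O all 3 had a ratio under 0, with ADAMTS14 3.30-fold lower on 86 reads and ADAMTS3 1.28-fold lower. ADAMTS2 holds 4 sites and ADAMTS14 holds 2, while ADAMTS3 has none.

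Among the other ADAMTS genes, ADAMTS12, which cleaves COMP in cartilage, had the largest opposed change. It went from 87.3 and 85.0 CPM to 20.9 and 21.7 CPM in A-498 (log2 fold change -2.01 ± 0.05, adjusted p = 8.57e-13). In ACHN it went from 2.46, 2.78 and 2.82 CPM to 6.14, 6.61 and 6.67 CPM (1.27 ± 0.10, adjusted p = 2.22e-08). ADAMTS7, also a COMP-cleaving enzyme, rose in ACHN from 9.32, 8.92 and 8.29 CPM to 11.9, 14.8 and 12.2 CPM (0.54 ± 0.09, adjusted p = 9.51e-05). Its fall in A-498 was small, from 15.9 and 14.3 CPM to 13.3 and 12.6 CPM (-0.22 ± 0.08, adjusted p = 0.0264). That call was lost under DESeq2 (adjusted p = 0.0887), without TMM scaling (adjusted p = 0.133), without control replicate 1 (adjusted p = 0.132) and without mimic replicate 2 (adjusted p = 0.179), so 12 opposed genes remain without it. Near-identical pseudogene copies also make ADAMTS7 counts uncertain.

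ADAMTS18 had the largest rise of any of these genes in ACHN. It was at 0.534, 0.498 and 0.574 CPM in the controls and 2.30, 1.83 and 2.08 CPM with the inhibitor (log2 fold change 1.95 ± 0.18, adjusted p = 1.22e-07), and holds 2 sites. It was not tested in A-498 for lack of reads and stood at 12 reads in each 786-O library. ADAMTS16 was opposed too, with log2 fold changes of -0.39 ± 0.05 in A-498 and 0.41 ± 0.07 in ACHN (adjusted p = 3.23e-05 and 1.87e-04). ADAMTS6, a fibrillin-associated protease with an 8mer, rose in ACHN (0.34 ± 0.05, adjusted p = 7.00e-05) and had a log2 fold change of 0.30 ± 0.20 in A-498 that did not pass (adjusted p = 0.241). ADAMTS10, its close paralog, went from 22.9 and 22.0 CPM to 13.004 and 13.8 CPM in A-498 (-0.74 ± 0.07, adjusted p = 3.61e-07). ADAMTS13, which cleaves von Willebrand factor, was higher in A-498 at 5.22 and 5.19 CPM against 3.47 and 3.14 CPM (0.66 ± 0.11, adjusted p = 1.73e-04).

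The membrane-type MMPs included 3 genes lower in A-498. MMP14 went from 237 and 226 CPM to 81.9 and 86.5 CPM in A-498 (log2 fold change -1.46 ± 0.04, adjusted p = 3.97e-12). In ACHN it went from 106, 117 and 115 CPM to 176, 188 and 164 CPM (0.64 ± 0.05, adjusted p = 4.32e-08), and in 786-O from 143 to 56.4 CPM. MMP24, a neural membrane-type enzyme, went from 117 and 109 CPM to 69.4 and 73.6 CPM in A-498 (-0.66 ± 0.05, adjusted p = 3.83e-08). In ACHN it went from 53.5, 57.0 and 59.5 CPM to 65.9995, 82.8 and 69.97 CPM (0.36 ± 0.07, adjusted p = 3.28e-04). MMP15 fell with the mimic in A-498 from 16.6 and 15.4 CPM to 3.60 and 3.41 CPM (-2.19 ± 0.09, adjusted p = 1.12e-10). It was 8.18-fold lower in 786-O, at 877 and 106 reads. In ACHN its log2 fold change was -0.03 ± 0.09, with a 95% interval of -0.21 to 0.14, and it did not pass (adjusted p = 0.822).

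MMP16 and MMP17 have sites and went the other way. MMP16 rose in A-498 from 0.686 and 0.782 CPM to 1.90 and 2.21 CPM (log2 fold change 1.48 ± 0.19, adjusted p = 1.31e-05), on 83 and 247 reads. In 786-O, where it was far more abundant, it went from 106 to 86.3 CPM. Its 3 sites all lie beyond the first 2000 nt of its 3′ UTR. So do the sites of MMP24 and ADAM22, which were lower in A-498, while the MMP17 site lies 358 nt after the stop codon. MMP17 was the only gene lower with the inhibitor in ACHN by edgeR, at 2.95, 3.22 and 2.93 CPM against 4.54, 4.17 and 4.12 CPM (-0.50 ± 0.10, adjusted p = 0.00109). In MMP25, with 18 and 8 reads in 786-O, the ratio was 2.01-fold lower.

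Secreted MMPs other than MMP7 and, in 786-O, MMP2 were scarce, at 4.97 CPM or less in every library. MMP2 went from 142 to 26.3 CPM in 786-O (5.38-fold lower). In A-498 it went from 39 to 4 reads over both libraries of a group, 10.4-fold lower with an exact 95% counting interval of 3.76 to 40.1, and it was called lower (adjusted p = 2.20e-04). It passed the filter there through the control group alone, so this call is not independent of the filter. An unnamed gene overlaps its exons by 174 bases. MMP3 and MMP10, the stromelysins, and MMP13, a collagenase, were higher with the mimic in A-498, with log2 fold changes of 3.11 ± 0.43, 2.92 ± 0.63 and 1.62 ± 0.40. They rested on 9 and 85, 4 and 34, and 16 and 53 reads in the control and mimic groups, and are named because they belong to the 10 genes called higher, although their level is under that set for naming. All 3 passed the filter through the mimic group alone, so their calls are not independent of it. MMP1, the interstitial collagenase, went from 75 to 155 reads in 786-O (2.03-fold). MMP7 was slightly lower in A-498 (log2 fold change -0.18 ± 0.04, adjusted p = 0.00334) and MMP11 was lower from few reads (-0.97 ± 0.33, adjusted p = 0.0215). MMP19 was higher in ACHN (0.75 ± 0.23, adjusted p = 0.0154), but its groups overlapped and the call was lost without control replicate 1 or 3 or inhibitor replicate 1 (adjusted p = 0.0625 to 0.0674). MMP9 did not pass in A-498 (adjusted p = 0.705) or ACHN (adjusted p = 0.441), with levels below 0.54 CPM.

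Of the inhibitors, TIMP2 was opposed and TIMP1 was not. TIMP2, which also takes part with MMP14 in activating pro-MMP2, went from 280 and 275 CPM to 173 and 174 CPM in A-498 (log2 fold change -0.68 ± 0.04, adjusted p = 1.61e-09). In ACHN it went from 69.4, 61.5 and 67.6 CPM to 102, 106 and 111 CPM (0.68 ± 0.05, adjusted p = 1.74e-08), and in 786-O from 368 to 188 CPM. Its exons overlap CEP295NL by 224 bases on the same strand. TIMP1 rose with the mimic in A-498, from 104 and 99.3 CPM to 138 and 139.9 CPM (0.45 ± 0.04, adjusted p = 4.10e-07). It was at 59.8, 57.6 and 61.5 CPM in the ACHN controls and 64.9, 61.1 and 59.0 CPM with the inhibitor (0.05 ± 0.05, adjusted p = 0.478), and at 104 CPM in both 786-O libraries. TIMP4 was measured mainly in ACHN, at 7.41 to 7.64 CPM in the controls and 7.11 to 7.98 CPM with the inhibitor (adjusted p = 0.946). The summed CPM of all 66 genes went from 3284 and 3334 to 2290.2 and 2273 in A-498, and from 2267 to 2300 up to 2677 to 2738 in ACHN.

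Set against the sites shown above, 12 of 15 tested genes with a site were lower in A-498 and 1, MMP16, was higher, with a median log2 fold change of -0.73. Of 28 genes without a site, 12 were lower and 9 higher, with a median of -0.16. Among the genes past the filter in both groups, 11 of 14 with a site were lower and 1 higher (median -0.69), and 12 of 20 without were lower and 5 higher (median -0.28). Over all coding genes tested, 55.6% of those with a site and 29.0% of those without were lower, and 18.3% and 32.2% were higher. These shares also count genes past the filter in 1 group alone. In ACHN, 9 of 14 genes with a site and 9 of 23 without were higher, against 41.2% and 17.7% of all coding genes. In 786-O the ratio was under 0 for 15 of 18 genes with a site and 14 of 26 without, against 69.9% and 48.0% of all. Of the 13 opposed genes, 7 had a site, 3 (ADAMTS16, MMP14 and TIMP2) had a shorter 6-base match only, and 3 (ADAM9, ADAM17 and ADAMTS3) had no match. ADAM9 does hold a 7mer-m8 in its longest annotated 3′ UTR.

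**Figure D5:**
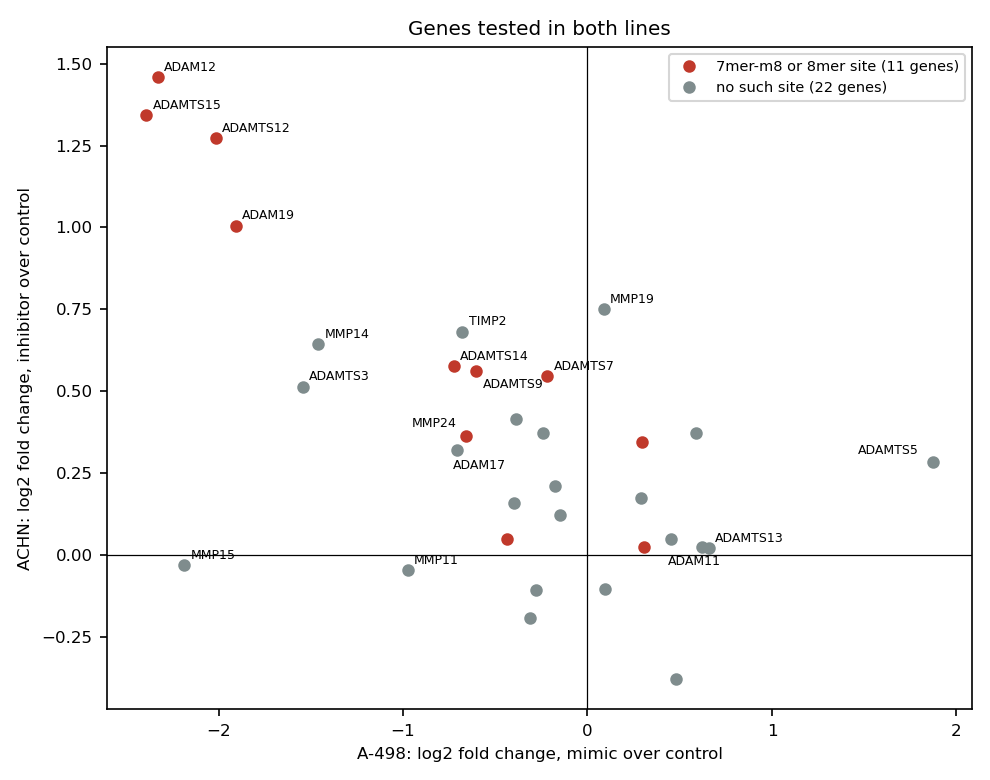
Log2 fold change with the mimic in A-498 (horizontal axis) against that with the inhibitor in ACHN (vertical axis) for the 33 genes tested in both, red where the 3′ UTR holds a 7mer-m8 or 8mer site. ADAM12, ADAMTS15, ADAMTS12 and ADAM19, all with a site, lie at the upper left, and MMP15 and MMP11 lie to the left near 0 on the vertical axis.

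Whether A-498 and 786-O responded alike to the mimic was tested by the interaction term of a joint edgeR fit, in which the single 786-O libraries were assumed to vary like those of A-498. It differed for 20 of 50 genes, against 29.6% of 22587 genes. Of these, 8 differed by at least 1 on the log2 scale. These values cannot cover the variation of 786-O itself, which has 1 library per group. ADAM19 was further below its control in 786-O (difference, 786-O minus A-498, -2.34 ± 0.10, adjusted p = 7.07e-13). ADAMTS2 (1.64 ± 0.12), ADAMTS12 (1.48 ± 0.12) and ADAMTS3 (1.24 ± 0.10) had positive differences. With a biological coefficient of variation set at 0.2, of these 8 genes only ADAM19 and ADAM28 kept their call.

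Partners of these enzymes were counted from fixed lists, to be read against the shares of all genes given above (27.0% lower and 25.5% higher in A-498, 14.4% lower and 17.3% higher in ACHN). Of 13 genes that mature or traffic ADAMs and MMPs (proprotein convertases, iRhoms and tetraspanins), 9 of 13 tested were lower and 0 higher in A-498, and 7 of 11 tested were higher and 0 lower in ACHN. These counts of 0 were also 0 at an unadjusted p under 0.05 in edgeR and by DESeq2. PCSK5 and PCSK6, convertases that remove propeptides, were lower in A-498 (log2 fold change -0.84 ± 0.04 and -0.81 ± 0.06). TSPAN14, a tetraspanin partner of ADAM10, fell in A-498 (-0.81 ± 0.05) and rose in ACHN (0.37 ± 0.05), and TSPAN5, another partner, did likewise (-0.50 ± 0.05 and 0.39 ± 0.05). RHBDF1, an iRhom that carries ADAM17 to the surface, was higher in ACHN (0.48 ± 0.06).

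Of 13 genes of the plasminogen system and other regulators, 4 were lower and 7 higher of 11 tested in A-498, and 1 was lower and 5 higher of 10 tested in ACHN. SERPINE2, a protease inhibitor, fell in A-498 (log2 fold change -1.29 ± 0.04) and rose in ACHN (0.33 ± 0.05). PLAT, tissue plasminogen activator, was higher in both (1.09 ± 0.09 and 0.83 ± 0.05). RECK, a membrane-anchored MMP inhibitor, was higher in ACHN (0.38 ± 0.06). Shed substrates went both ways, as 8 were lower and 7 higher of 18 in A-498, and 6 lower and 4 higher of 18 in ACHN. AREG, an EGF-receptor ligand released by ADAM17, was higher in A-498 (2.16 ± 0.09) and lower in ACHN (-0.37 ± 0.06). BTC did likewise (0.94 ± 0.12 and -0.31 ± 0.05). TNFRSF1A was lower in A-498 (-0.85 ± 0.04) and did not pass in ACHN (0.10 ± 0.05). In 786-O, AREG went from 107 to 55 reads. Of the proteoglycan substrates, 3 of 11 could be tested in A-498, where VCAN was lower (-0.21 ± 0.03) and AGRN higher (0.52 ± 0.07), and 4 of 11 in ACHN, with 1 lower and 1 higher. Of 7 ADAMTS-like genes, which lack the protease domain, 2 were lower and 2 higher of 6 in A-498, and 1 was lower and 3 higher of 6 in ACHN.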

How the data were processed

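RNA was measured by RNA-seq of libraries depleted of ribosomal RNA and stranded. The authors aligned reads to GRCh38 with HISAT2 and deposited raw counts per Ensembl v87 gene from HTSeq, without normalisation. The deposited DESeq2 tables, which hold the authors' own fold changes and p-values, were not used. Symbols, transcripts and 3′ UTRs came from GENCODE v44 (56948 of 58051 genes matched). In each line, edgeR 4.0.16 (R 4.3.3) was used for quasi-likelihood tests of the counts, after filterByExpr and TMM, with Benjamini-Hochberg adjustment over all genes tested, and called at an adjusted p under 0.05. For 786-O, log2 ratios used prior count 2. Simulated data with known changes were used to test the scripts. No molecular identifiers were described, so intervals cover counting error only. Alternatives were DESeq2 1.42.0, library-size scaling, no filter, other thresholds and each replicate left out. The members, lists and tests were chosen with earlier results of these data known. Named were up to 10 called genes per direction and line at an average log2 CPM of 0 or more, every opposed gene, 786-O genes with at least 20 reads and a 2-fold change, interaction calls of at least 1, and a fixed panel (TIMP1 to TIMP4, MMP2, MMP9, MMP14, ADAM10, ADAM17, ADAMTS15). Of each partner list, up to 4 called genes per line at an average log2 CPM of 1 or more could be named. Some site sequences are not reported here. No library was a copy of its replicate (chi-square over its degrees of freedom, 3.87 to 12.2).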

Additional observations from a re-analysis of the deposited data

Results flagged for a closer look

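In the interaction test, 8 genes were called with a difference in mimic effect of at least 1 on the log2 scale, with the spread of 786-O, which has 1 library per group, taken from A-498. With a biological coefficient of variation of 0.2, ADAM19 and ADAM28 alone kept the call. As differences of 786-O minus A-498, the values were 3.95 for ADAM28, 1.73 for ADAM32, 1.64 for ADAMTS2, 1.48 for ADAMTS12 and 1.24 for ADAMTS3. They were -2.34 for ADAM19, -1.73 for MMP16 and -1.49 for ADAMTS5. ADAM28 rested on 2 and 19 reads in 786-O, and ADAMTS5 on 11 and 44 reads in A-498.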

How the results depend on the processing

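The counts of genes called in A-498 (27 to 34) and ACHN (17 to 20), of 786-O genes past 2-fold (14 to 18) and of opposed genes (12 to 13) stayed within 1.5 times their reported values under every alternative run. The interaction calls fell from 20 to 2 with a fixed biological coefficient of variation of 0.2. Genes with a site numbered 7 with 8mers alone and 32 with any match of 6 bases or longer. With 1 replicate left out, A-498 calls ranged from 32 to 34 and ACHN calls from 17 to 20, and 12 of 13 opposed genes kept their call throughout. Log2 fold changes that turned direction with 1 replicate left out were, in A-498, MMP9 (-1.07 to 0.27) and ADAM21 (-0.787 to 0.0664), and in ACHN MMP15 (-0.0889 to 0.0289), ADAMTS13 (-0.0764 to 0.162), ADAM11 (-0.0421 to 0.0919) and TIMP4 (-0.0406 to 0.0530, and -0.00169 with library-size scaling). None of these passed the test. In ACHN the shared replicate numbers did not pair the libraries (correlations of same-numbered deviations 0.157, -0.120 and -0.0413), and a fit with the replicate as a block gave 20 calls (2 lower, 18 higher), adding ADAM10. A-498 groups shared only replicate number 1, so no paired fit was made there. Genes with few reads, such as MMP2 and MMP3 in A-498, are limited by depth.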
